A study of Mus musculus with 16 samples.

Results

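The comparison described here is that of bleomycin with saline in female mice, in RNA from cells washed out of the airways (bronchoalveolar lavage). It was formed by setting the 4 count columns of bleomycin-treated females against the 4 of saline-treated females, 8 of the 16 libraries of the series, over all 54532 genes of the count table. No genetic change is named in the labels. The mice were of the strain spelled C56BL/6J in the sample labels and C57BL/6 in the series text, and were 8 to 10 weeks old. Bleomycin females had received bleomycin at 4 U per kg of body weight and saline females saline alone, both by the oropharyngeal route, and the lavage cells were taken on day 14. The other 8 libraries, 4 of saline males and 4 of bleomycin males treated in the same way, entered the fit so that all groups shared one estimate of the spread. The libraries are named by their codes, C49, C50, C68 and C69 for bleomycin females and C74, C75, C76 and C77 for saline females, and values below follow that order.

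Bleomycin breaks DNA strands. Placed in the airways of mice it injures the epithelium, draws in monocytes and lymphocytes, and is followed by scarring of the lung. Under healthy conditions nearly all lavage cells are resident alveolar macrophages, which clear surfactant lipid and depend on the transcription factor PPAR-gamma, encoded by Pparg. After injury monocytes enter the airspace and become macrophages that make osteopontin, apolipoprotein E and growth factors, and these cells are known for their part in fibrosis.

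The libraries held 18871879 to 24567609 counts in bleomycin females and 16385784 to 21393539 in saline females. On the first principal component, with 78.5% of the variance of the 8 female libraries, the groups were apart. The second, with 9.97%, spread the bleomycin libraries, at 59.67 in C49, 14.14 in C50, -27.98 in C68 and -50.73 in C69, farther than the saline libraries, at -7.179 to 12.92. The median SD of log2 CPM over 8896 genes was 0.178 in bleomycin and 0.093 in saline females. The labels do not say whether a library is 1 mouse or a pool, so that the p-values measure only the spread between these samples. Defining genes of macrophages were abundant in both groups: Lyz2, the lysozyme of macrophages, stood at 38700, 45430, 49130 and 56820 CPM under bleomycin and 18910, 18570, 19340 and 18280 under saline, and Cd68, a lysosomal glycoprotein of macrophages, at 949, 1054, 1345 and 1371 CPM under bleomycin and 664, 553, 520.1 and 519 under saline. In bulk RNA, fewer cells of a type and less RNA per cell cannot be told apart, so each level below is a level of RNA. CPM are a gene's counts relative to its library's total, after composition scaling, and changes are log2 fold changes from edgeR with an approximate standard error (SE).

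Of 15257 genes tested, 6699 were called at an adjusted p below 0.05 in edgeR's quasi-likelihood test, or 43.9% of them. The 4070 that rose were 26.7% and the 2629 that fell 17.2%, and the list counts below are to be read against these shares. At least 2-fold changes were more uneven, with 2325 rises and 708 falls, and without C49 the falls numbered 1120. In 5600 of the called genes all bleomycin libraries lay on one side of all saline libraries. The median change over all genes tested was 0.0179. Without composition scaling it was -0.173, and 39.3% of the 7969 genes called rose, against 60.8% with scaling, so that small changes in either direction are relative to the scaling. With C68 and C69 as the only bleomycin libraries 51.4% of 7964 called genes rose. The authors' deposited table for this comparison held 6651 genes at its own adjusted p below 0.05, 4187 higher and 2464 lower under bleomycin, and 6011 of them (90.38% of theirs, 89.73% of those called here) were also called here, all in the same direction.

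**Figure D1:**
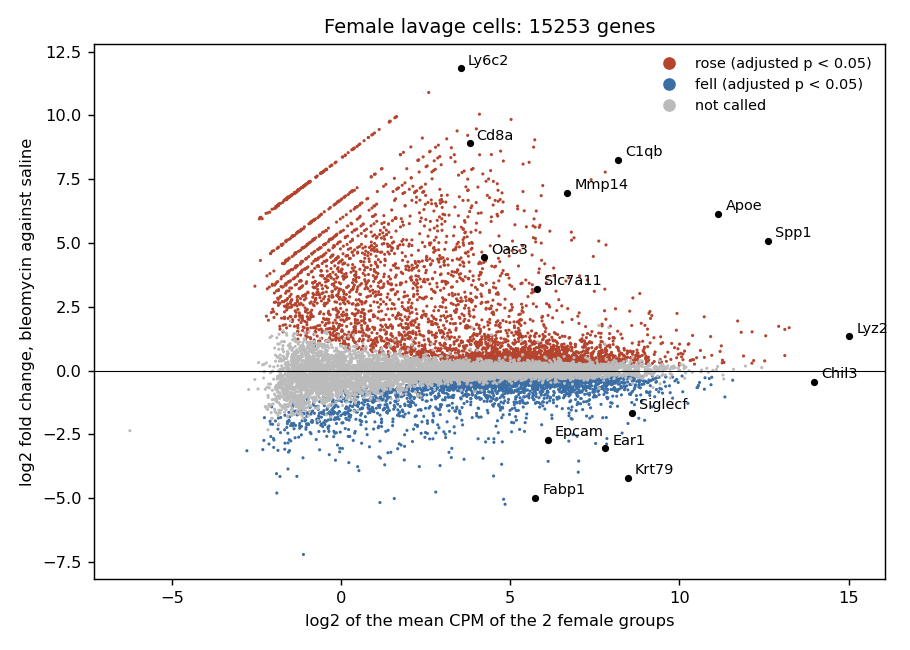
Log2 fold change, bleomycin against saline in females, over the log2 mean CPM of the female groups, 1 point per gene. Genes called at an adjusted p below 0.05 are coloured by direction, and genes at 0 in all 8 female libraries are not drawn. The points spread farther above 0 than below it, with Ly6c2, C1qb and Apoe among the high ones and Fabp1 and Krt79 among the low ones.

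Genes that mark resident alveolar macrophages did not move as one block. Of 26 such genes 11 fell and 3 rose, with a median change of -0.37. Fabp1, an intracellular carrier of fatty acids, was measured at 2.68, 2.52, 4.23 and 3.68 CPM under bleomycin and 78.5, 98.9, 114 and 119 under saline, a change of -4.98 (SE 0.23). Ear1, an eosinophil-associated ribonuclease gene that alveolar macrophages express, stood at 27.5, 40.4, 62.03 and 63.3 CPM under bleomycin and 404, 370.1, 412 and 399 under saline (-3.04, SE 0.23). Siglecf, the sialic acid receptor used to recognise these cells, stood at 165, 145, 230.3 and 199.9 CPM under bleomycin and 583, 572, 584 and 585 under saline (-1.65, SE 0.17). The groups did not overlap in any of these. Pparg stood at 98.6, 98.6, 185 and 142 CPM under bleomycin and 191, 201, 187 and 203 under saline, a smaller fall (-0.58, SE 0.15) in which C68 lay just below the lowest saline library. Chil3, a chitinase-like protein, stood at 9156, 9195, 15610 and 20700 CPM under bleomycin and 18090, 17710, 17800 and 20880 under saline (-0.45, SE 0.22, edgeR adjusted p = 0.11). C49, C50 and C68 lay below all saline libraries, C49 and C50 farthest, and C69 lay within the saline range. Car4, a carbonic anhydrase, stood at 214, 249, 471 and 358 CPM under bleomycin and 498, 479, 468 and 386 under saline (-0.50, SE 0.21, edgeR adjusted p = 0.0634). Here too C49 and C50 were lowest, while C69 lay below all saline libraries and C68 within their range. Lpl, the lipoprotein lipase, was at 0.05 (SE 0.11), Atp6v0d2, a proton pump subunit, at 0.08 (SE 0.11), which was called as lower with C49 and C50 as the only bleomycin libraries (-0.24), and Marco, a scavenger receptor, at 0.51 (SE 0.3), and none of them passed. The 3 that rose were Ctsk, a collagen-degrading cathepsin, at 1040, 1232, 1671 and 1810 CPM under bleomycin and 468, 495, 492 and 465 under saline (1.58, SE 0.13), the transporter gene Abcg2 (1.37, SE 0.12) and the transcription factor gene Bhlhe41 (0.49, SE 0.13). With C68 and C69 as the only bleomycin libraries, or without C49, 5 of the 26 rose. The summed CPM of the list was 22340 to 38740 under bleomycin and 37480 to 39800 under saline.

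Genes of monocytes and of macrophages derived from them were raised, 18 of 21 rising and 0 falling, with a median of 4.36. The monocyte surface gene Ly6c2 had 0 counts in the saline females and stood at 25.3, 29.7, 16.96 and 20.2 CPM under bleomycin, at least 596-fold above the floor of 3 counts over the group. Ccr2, the receptor by which monocytes follow the chemokine CCL2, stood at 150.1, 149.9, 118 and 167 CPM under bleomycin and 13.1, 19.5, 18.2 and 16.5 under saline (3.11, SE 0.17). Cx3cr1, the fractalkine receptor, was higher in C49 and C50 than in C68 and C69, at 35.4, 36.4, 20.6 and 21.4 CPM under bleomycin and 0.832, 0.695, 0.893 and 1.19 under saline (4.99, SE 0.32). Csf1r, the receptor of the macrophage growth factor CSF1, rose least among those named here, from 333, 304, 273 and 287 to 608, 639.9, 642 and 766 CPM (1.15, SE 0.089). All bleomycin libraries lay above all saline libraries in each of these 4 genes. Apoe, which carries cholesterol, stood at 3004, 4962, 4245 and 5679 CPM under bleomycin and 51.5, 66.1, 64.4 and 68.5 under saline, a 71.4-fold rise (6.16, SE 0.24). C49 was its lowest bleomycin library and C69 its highest, as in Lyz2, C1qb and Spp1.

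Macrophage genes reported in fibrotic lung rose in 17 of 20 cases, with 0 falls and a median of 2.72. Spp1, which encodes osteopontin, a secreted matrix protein, stood at 8307, 12100, 13560 and 14470 CPM under bleomycin and 402, 379.7, 344 and 300.4 under saline (5.09, SE 0.19). Trem2, a lipid receptor, stood at 321, 381, 430.1 and 466 CPM under bleomycin and 42.7, 47.5, 46.4 and 38.1 under saline (3.19, SE 0.13). Gpnmb, a lysosomal glycoprotein, stood at 1284, 1772, 1774 and 1592 CPM under bleomycin and 342, 379, 351 and 288 under saline (2.24, SE 0.15). The lowest bleomycin library exceeded the highest saline library several times over in all of them. Fabp5, a fatty acid binding protein unlike Fabp1 in its direction, stood at 742, 1003, 936 and 959 CPM under bleomycin and 203, 216, 244 and 219.9 under saline (2.04, SE 0.11). Fn1, fibronectin, was already abundant under saline and stood at 6197, 4834, 4992 and 5425 CPM under bleomycin and 2289, 1886, 1996 and 1415 under saline (1.5, SE 0.17). Arg1, the arginine-degrading enzyme arginase, stood at 75.4, 100.1, 111 and 207 CPM under bleomycin and 0.499, 1.48, 0.6302 and 0.454 under saline (7.25, SE 0.55), and C69 held the highest level. Among 16 measured genes of alternative activation, of 18 listed, 11 rose and 1 fell. The member that fell was Mrc1, the mannose receptor, at 1099, 1116, 1553 and 1363 CPM under bleomycin and 2328, 2162, 2001 and 2017 under saline (-0.73, SE 0.12). Stab1, a scavenger receptor, rose, at 43.6, 63.3, 36.1 and 48.9 CPM under bleomycin and 0.444, 0.695, 0.998 and 0.567 under saline (6.13, SE 0.24), beside the lectin gene Mgl2 (3.88, SE 0.25), the chemokine gene Ccl17 (2.53, SE 0.28) and Retnla (4.87, SE 0.74). Irf4, a transcription factor of this programme and of lymphocytes, was at 22.7, 21.8, 11.8 and 9.57 CPM under bleomycin, so that C49 and C50 were higher, as they were for lymphocyte genes. The transglutaminase gene Tgm2 stood at 0.14 (SE 0.12) and did not pass. Chil4 and Ccl24 had too few counts to be tested: Chil4 held 147 of its 156 bleomycin counts in C68.

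**Figure D2:**
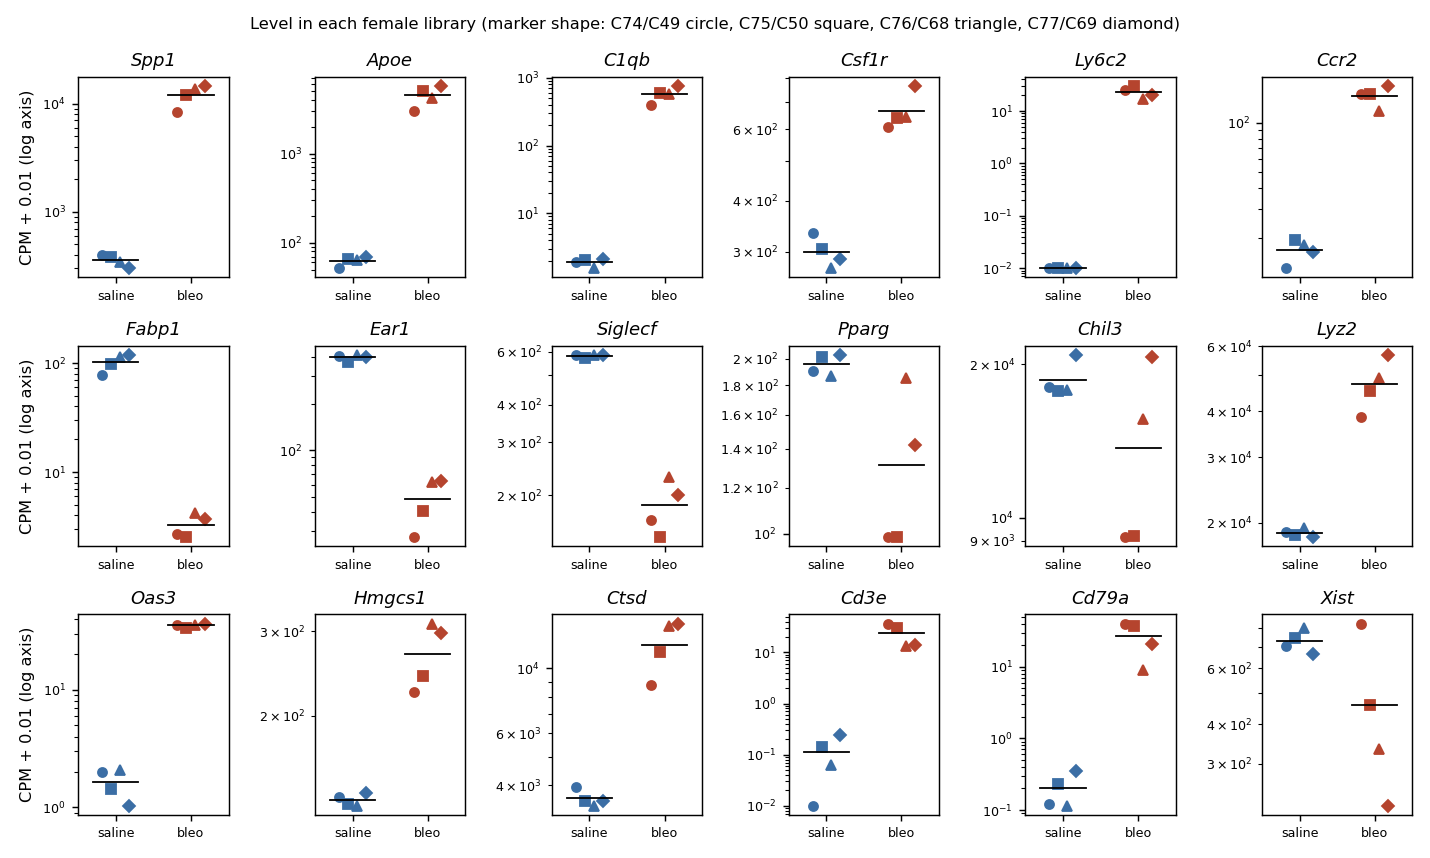
CPM (plus 0.01, log axis) of 18 genes in each female library, saline in blue and bleomycin in red, with a bar at the mean of each group. The groups are apart for Spp1, Apoe, C1qb, Csf1r, Ly6c2, Ccr2, Fabp1, Ear1, Siglecf, Lyz2, Oas3, Hmgcs1, Ctsd, Cd3e and Cd79a, close in Pparg, and overlap in Chil3 and Xist.

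Growth factors of repair rose in 14 of 22 measured cases, of 27 listed, and fell in 3. Igf1, insulin-like growth factor, stood at 187, 206, 158 and 233 CPM under bleomycin and 17.03, 18.3, 14.5 and 12.7 under saline (3.65, SE 0.17). Pdgfa, a ligand that drives fibroblasts to divide, stood at 6.24, 8.03, 7.46 and 6.32 CPM under bleomycin and 0.222, 0.0869, 0.158 and 0.0567 under saline (5.70, SE 0.41), and its relative Pdgfb at 18.2, 21.3, 15.1 and 16.8 CPM under bleomycin and 2.66, 3.83, 3.62 and 3.405 under saline (2.40, SE 0.23). Neither gene overlapped between the groups. Thbs1, thrombospondin, which can activate latent TGF-beta, stood at 73.5, 111, 75.1 and 149.5 CPM under bleomycin and 1.89, 1.87, 2.31 and 0.454 under saline (5.95, SE 0.43). The TGF-beta ligand genes themselves did not rise: Tgfb1 stood at 277, 312, 383 and 431 CPM under bleomycin and 411, 370.2, 317 and 362 under saline (-0.06, SE 0.12, edgeR adjusted p = 0.736), with overlapping groups, and Tgfb2 fell from 8.54, 7.48, 7.35 and 6.64 to 2.92, 1.98, 2.56 and 3.01 CPM (-1.52, SE 0.32). Tgfbi, a matrix protein induced by TGF-beta, was at 0.65 (SE 0.1). The epidermal growth factor family ligand Hbegf rose from at most 0.105 CPM to 1.9, 2.48, 2.24 and 2.27 CPM (5.27, SE 0.47), while Areg, another of that family, did not pass at 0.93 (SE 0.4). Vegfa (1.95, SE 0.33) and the activin subunit gene Inhba (2.22, SE 0.44) rose at levels below 5 CPM. Fgf1, a fibroblast growth factor, fell at 2.095, 1.47, 2.09 and 3.07 CPM under bleomycin and 11.4, 11.7, 13.9 and 9.93 under saline (-2.44, SE 0.36), and Pdgfc fell by less, with overlap (-0.46, SE 0.15). Osm, oncostatin M, stood at 0.35 (SE 0.2) and did not pass.

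Matrix proteases and their inhibitors rose in 19 of 21 measured cases, of 23 listed, and 1 fell. Mmp14, a membrane-bound collagenase, stood at 184, 204, 171 and 257 CPM under bleomycin and 1.28, 2.26, 1.05 and 1.82 under saline (6.97, SE 0.21). Mmp12, the macrophage elastase, stood at 313, 442, 355 and 411 CPM under bleomycin and 8.88, 19.5, 7.67 and 8.51 under saline (5.08, SE 0.29). Adam8, a sheddase, stood at 111, 122, 78.5 and 105 CPM under bleomycin and 3.55, 2.96, 2.21 and 2.78 under saline (5.18, SE 0.22). The bleomycin libraries were close to each other in these 3 genes and far above all saline libraries. Of the inhibitors, Timp2 stood at 403, 446, 451 and 561 CPM under bleomycin and 97.3, 88.5, 81.3 and 79.7 under saline (2.42, SE 0.11) and Timp1 at 2.92, 4.12, 4.64 and 7.24 CPM under bleomycin and 0.888, 0.304, 0.788 and 0.794 under saline (2.78, SE 0.36), a far lower level. The member that fell was Plaur, the receptor of urokinase, at 187, 223, 243 and 299.9 CPM under bleomycin and 368, 341, 336 and 324 under saline (-0.52, SE 0.14).

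Complement genes rose in 13 of 19 measured cases, of 21 listed, and 2 fell. C1qb and C1qa, chains of C1q, which tags dying cells for uptake, stood at 397, 595, 577 and 752 CPM under bleomycin and 1.89, 2.04, 1.52 and 2.1 under saline (8.26, SE 0.26) and 297, 460.4, 422 and 599.9 CPM under bleomycin and 1.33, 2.22, 2.21 and 2.27 under saline (7.78, SE 0.25). The receptor genes went in different directions. C3ar1, the receptor of C3a, stood at 68.5, 98.9, 90.4 and 90.3 CPM under bleomycin and 1.89, 2.13, 1.42 and 1.48 under saline (5.64, SE 0.19). C5ar1, the receptor of C5a, stood at 128, 147, 251 and 229.6 CPM under bleomycin and 343, 261, 254 and 255 under saline (-0.56, SE 0.18), and its homologue C5ar2 also fell (-0.54, SE 0.13). Both bleomycin values of C68 and C69 were nearer to saline than those of C49 and C50 in C5ar1. The central component C3 (0.51, SE 0.2), properdin, encoded by Cfp (0.40, SE 0.11), and factor B, encoded by Cfb (1.16, SE 0.26), rose by less.

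Lysosome genes rose in 29 of 32 cases and 3 fell, with a median of 0.71. Ctsd, the protease cathepsin D, stood at 8745, 11310, 13880 and 14160 CPM under bleomycin and 3959, 3543, 3408 and 3532 under saline (1.74, SE 0.14). Ctsb, cathepsin B, stood at 4420, 5610, 5466 and 5922 CPM under bleomycin and 1412, 1407, 1357 and 1391 under saline (1.94, SE 0.1). All bleomycin libraries were above all saline libraries in these genes, with C49 the lowest of the bleomycin ones. Ctsl (1.77, SE 0.13), Cd68 (1.06, SE 0.13), Lamp1 (0.79, SE 0.09), the lipase gene Lipa (0.77, SE 0.083) and Hexa (0.54, SE 0.091) rose as well. The 3 that fell were the transcription factor genes Tfeb, at 72.9, 73, 75.6 and 73.02 CPM under bleomycin and 80.4, 95.1, 97.2 and 91.3 under saline (-0.31, SE 0.071), and Mitf (-0.42, SE 0.12), which drive lysosome genes, and the calcium channel gene Mcoln1 (-0.26, SE 0.083). TFEB binds the palindrome TCACGTGA, known as the CLEAR element. Of the 25 lysosome genes with a promoter in the RefSeq table (GRCm38.p6, 250 bases before to 50 after the start, both strands searched), 6 held it, or 24.0%, against 2.12% of the 10535 genes tested here that have a promoter in the table and 1.12% of all its 27025 genes. The windows below, read 5′ to 3′ on the strand of the gene and with the element in capitals, show 3 of the genes that rose, Ctsd (chr7:142387904-142387941, minus strand), Gla (chrX:134601178-134601248, minus strand, 2 matches, alpha-galactosidase, 1.35 (SE 0.099)) and Atp6v1a (chr16:44139369-44139406, minus strand, a proton pump subunit, 0.81 (SE 0.08)), and Mcoln1 (chr8:3500458-3500495, plus strand), which fell.
Ctsd: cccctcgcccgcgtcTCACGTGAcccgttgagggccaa
Gla: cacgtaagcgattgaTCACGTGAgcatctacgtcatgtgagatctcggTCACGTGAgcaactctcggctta
Atp6v1a: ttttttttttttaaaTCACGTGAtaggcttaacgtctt
Mcoln1: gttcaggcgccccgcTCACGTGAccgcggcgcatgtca
The same letters thus stood before the RefSeq starts of genes that rose and of one that fell. The Ctsd window lies inside the gene as deposited with the counts, which runs from 142375911 to 142388038. A match is a description, not a site.

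Receptors and bridging proteins for the uptake of dying cells and modified lipids divided into those that rose, 14 of 23, and 3 that fell. Msr1, the scavenger receptor SR-A, stood at 251, 291, 264 and 336 CPM under bleomycin and 24.4, 27.1, 25.6 and 20.1 under saline (3.55, SE 0.11). Mfge8, which bridges phosphatidylserine to integrins, stood at 322, 489, 461 and 487 CPM under bleomycin and 15.6, 17.3, 14.02 and 10.6 under saline (4.93, SE 0.18). Gas6, a ligand of the receptor tyrosine kinases AXL and MERTK, stood at 10.9, 15.8, 11.2 and 18.1 CPM under bleomycin and 0.444, 0.348, 0.2101 and 0.0567 under saline (5.67, SE 0.33), whereas Pros1, protein S, also a ligand of MERTK, fell, at 223, 212, 297 and 301 CPM under bleomycin and 439, 424, 395 and 396 under saline (-0.68, SE 0.11). The receptors themselves moved little: Axl fell by a small amount (-0.26, SE 0.083) and Mertk did not pass (-0.04, SE 0.1). Cd36 (-0.33, SE 0.14) and Lrp1 (-0.33, SE 0.14) did not pass either, and Olr1 fell (-0.32, SE 0.11).

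Cholesterol synthesis genes rose in 24 of 25 measured cases, of 26 listed, with a median of 0.90 and 0 falls. Idi1, the isomerase of the isoprenoid steps, stood at 66.3, 87.9, 116 and 92.4 CPM under bleomycin and 36.8, 35.6, 33.2 and 39.95 under saline (1.31, SE 0.14), and Sc5d, a late desaturase, at 66.4, 76.7, 88.2 and 69.7 CPM under bleomycin and 26.2, 28.4, 26.6 and 35.9 under saline (1.36, SE 0.13). Bleomycin libraries were all above saline ones, 2.49-fold on average for Idi1 and 2.57-fold for Sc5d, and C49 was the lowest bleomycin library in each. The regulators Srebf2 and Insig1 were at 0.53 (SE 0.089) and 0.75 (SE 0.11), and Mvd, an enzyme of the mevalonate steps, at 0.53 (SE 0.1). Hmgcs1, a synthase of the early steps, stood at 224, 242, 311 and 298 CPM under bleomycin and 136, 132, 130.2 and 138 under saline (1.01, SE 0.099). The sterol element TCACNCCAC, bound by SREBP, was found upstream of 1 of the 18 list members with a promoter in the RefSeq table, Hmgcs1 (chr13:119690199-119690237, GRCm38.p6, plus strand), against 1.39% of the genes tested and 1.44% of all genes, and is in capitals here.
Hmgcs1: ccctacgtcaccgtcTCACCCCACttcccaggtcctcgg

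Genes of cholesterol efflux and targets of the liver X receptors (LXR) did not move together: 9 of 16 measured genes, of 18 listed, rose and 4 fell. Beside Apoe the transporter gene Abca1 rose, at 294, 303, 221 and 240.4 CPM under bleomycin and 146, 161, 156 and 98.8 under saline (0.91, SE 0.14), and the transporter gene Abcg1 fell, at 977, 1030, 1355 and 1276 CPM under bleomycin and 2060, 1897, 1669 and 1660 under saline (-0.65, SE 0.12). Both carry cholesterol out of macrophages. The desaturase gene Scd1 stood at 149, 174, 165 and 138 CPM under bleomycin and 27.8, 28.9, 30.04 and 21 under saline (2.54, SE 0.13). The receptor gene Nr1h3 did not pass (-0.26, SE 0.13), and Nr1h2 (-0.19, SE 0.072), Srebf1 (-0.19, SE 0.071) and Mylip (-0.36, SE 0.096) fell by small amounts.

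Fatty acid oxidation fell in 10 of 22 measured genes, of 24 listed, and rose in 2, with a median of -0.21. Cpt1a, the carnitine acyltransferase that gates mitochondrial fatty acid import, stood at 344, 342, 384 and 343 CPM under bleomycin and 600.2, 571, 537 and 549.8 under saline (-0.68, SE 0.095). Acadm, a medium-chain dehydrogenase, stood at 62.1, 66.6, 76.2 and 80.5 CPM under bleomycin and 102, 114, 111 and 119 under saline (-0.64, SE 0.082), and Acadvl, its very-long-chain relative, at 35.1, 40.4, 42.6 and 42.6 CPM under bleomycin and 50.4, 67.1, 63.2 and 66.1 under saline (-0.62, SE 0.11). No bleomycin library reached the saline range in these 3 genes. Acadl, the long-chain enzyme, rose instead (0.49, SE 0.1), as did Echs1 (0.54, SE 0.1), and with C68 and C69 as the only bleomycin libraries 5 members rose. Glycolysis went the other way, with 16 rises and 1 fall among 20 genes. Slc2a1, the glucose transporter GLUT1, stood at 48.3, 62.2, 58.9 and 59.8 CPM under bleomycin and 19.6, 20.6, 21.5 and 21.6 under saline (1.46, SE 0.1), and Pfkl, a phosphofructokinase, at 81.6, 104, 90.4 and 98.5 CPM under bleomycin and 36.8, 38.2, 37.5 and 35.3 under saline (1.34, SE 0.092). Hif1a, which switches on these genes in low oxygen, stood at 187, 204, 206 and 207 CPM under bleomycin and 102, 94.9, 96.05 and 84.95 under saline (1.09, SE 0.082). The fall was Pfkp, another phosphofructokinase, at 149.5, 157, 175 and 170.3 CPM under bleomycin and 254, 267, 252 and 244 under saline (-0.64, SE 0.07). Of the 12 measured genes of the mitochondrial genome 10 rose, among them mt-Co1 (0.59, SE 0.1), but without composition scaling, or with C49 and C50 as the only bleomycin libraries, 5 did.

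Iron and heme genes rose in 12 of 18 measured cases, of 22 listed, and fell in 2. Hmox1, which breaks heme down, stood at 278, 1031, 346 and 809.7 CPM under bleomycin and 134, 116, 128 and 113 under saline (2.33, SE 0.43). Slc40a1, the iron exporter ferroportin, stood at 20.9, 47.3, 17.7 and 37.5 CPM under bleomycin and 5.83, 4.56, 5.199 and 3.75 under saline (2.67, SE 0.35). C50 and C69 were the high bleomycin libraries in both genes and C49 and C68 the low ones. Summed haemoglobin counts, scaled to the library total, were 1042, 845.8, 156.4 and 717.3 CPM under bleomycin and 454.3, 7.806, 336.9 and 151.1 under saline, and their part in these levels was not tested. Fth1, the ferritin heavy chain, stood at 9663, 12880, 14620 and 16280 CPM under bleomycin and 5274, 4171, 3794 and 4232 under saline (1.61, SE 0.16). Slc11a1, the phagosomal metal transporter, stood at 79.2, 126, 82.6 and 111 CPM under bleomycin and 3.38, 2.69, 2.94 and 1.702 under saline (5.21, SE 0.31), and Tfrc, the transferrin receptor, at 0.67 (SE 0.12). Flvcr2, a heme transporter, and Ncoa4, which delivers ferritin for breakdown, were the members that fell (-0.79 (SE 0.13) and -0.42 (SE 0.089)).

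Oxidative stress genes rose in 17 of 21 cases and 0 fell, with a median of 0.56. Slc7a11, the cystine importer that feeds glutathione synthesis (ENSMUSG00000027737, protein-coding, GRCm38 chromosome 3, 49892526 to 50443614), stood at 101, 119, 72.99 and 102 CPM under bleomycin and 11.9, 10.6, 11.9 and 8.62 under saline, a 9.16-fold rise (3.20, SE 0.22). It was the only gene of 15257 called in the test of the difference between the bleomycin effect in females and that in males, which is 0.00655% of them, and 1202 genes had an unadjusted p below 0.05 in that test. In males its levels were 32.8, 57.7, 24.4 and 39.8 CPM under saline (C70 to C73) and 87.9, 112, 89.3 and 81.1 under bleomycin (C33, C65, C66 and C67). The bleomycin levels of the sexes thus overlapped, while every saline female lay below every saline male. The rise was 1.26 (SE 0.20) in males, and the difference of 1.93 (SE 0.29) had an edgeR adjusted p of 0.0436. That call was fragile: the difference ran from 1.68 to 2.10 when each of the 16 libraries was left out in turn, but its adjusted p passed the threshold in 4 of those 16 fits, and limma voom gave 0.206. The partner chain of the transporter, Slc3a2, was at 0.74 (SE 0.096) in females with a difference from males of -0.05 (SE 0.14). Gclc and Gclm, subunits of the enzyme that starts glutathione synthesis, rose in females by 0.71 (SE 0.091) and 0.96 (SE 0.18), with differences of 0.05 (SE 0.13) and -0.02 (SE 0.26). Among the others, Nqo1, a quinone reductase, stood at 5.7, 9.04, 6.47 and 12.03 CPM under bleomycin and 1.44, 1.26, 1.26 and 0.851 under saline (2.77, SE 0.31), Gpx3, a secreted glutathione peroxidase, at 27.97, 31.6, 30 and 51.3 CPM under bleomycin and 1.83, 1.78, 2.05 and 1.76 under saline (4.24, SE 0.23), and the regulator Nfe2l2 at 0.37 (SE 0.087). Keap1, its inhibitor, did not pass (0.21, SE 0.085).

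**Figure D3:**
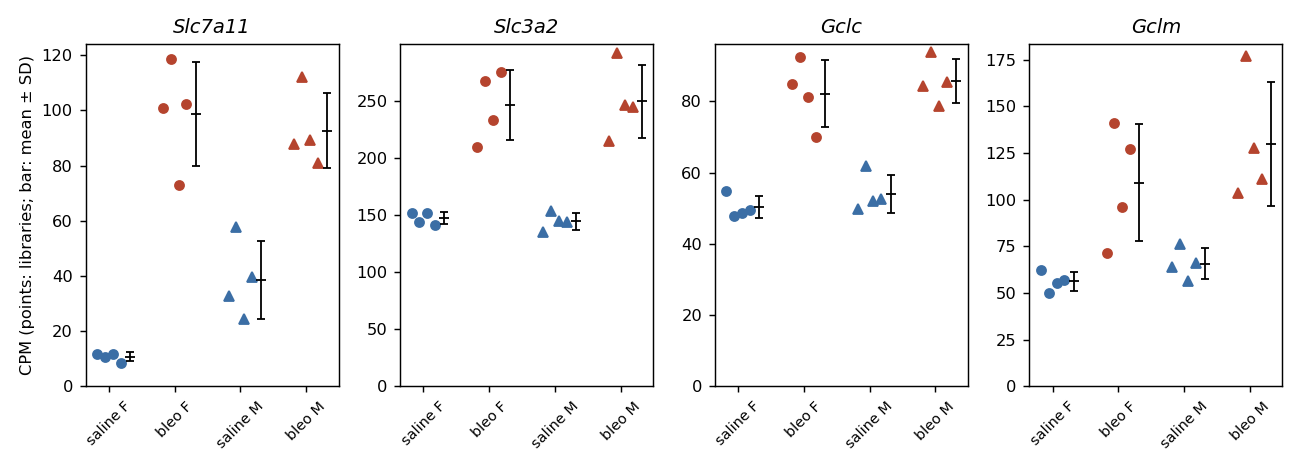
CPM of Slc7a11, Slc3a2, Gclc and Gclm in the 4 groups, 1 point per library (circles for females, triangles for males), with the mean and SD beside them. Slc7a11 stands at 10.8 ± 1.56 CPM in saline females and 38.7 ± 14.2 in saline males, and at 98.7 ± 18.9 and 92.6 ± 13.5 under bleomycin. In the other 3 genes the saline levels of the sexes overlap.

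Interferon response genes rose in 29 of 31 cases with 0 falls and a median of 3.21. All 29 kept the groups apart, as did 5600 of the 6699 genes called among all 15257 tested. Oas3, an antiviral synthetase, stood at 35.7, 33.5, 35.5 and 36.6 CPM under bleomycin and 1.997, 1.43, 2.05 and 1.02 under saline (4.44, SE 0.15). Irf7, a transcription factor of the response, stood at 49.8, 45.7, 45.5 and 52.3 CPM under bleomycin and 5.05, 3.22, 2.99 and 3.52 under saline (3.71, SE 0.17). Rsad2, which encodes viperin, stood at 21.1, 29.2, 19.7 and 25.04 CPM under bleomycin and 1.22, 0.913, 0.735 and 0.227 under saline (4.92, SE 0.27). The 4 bleomycin libraries were nearly level with each other in these genes, unlike in lymphocyte genes. Mx1 was an exception, at 32.6, 22.4, 11.9 and 15.1 CPM, with C49 the highest. Ifit1 (4.42, SE 0.29), Usp18 (4.86, SE 0.33) and Isg15 (2.68, SE 0.23) rose from low levels, while Irf9, part of the complex that binds interferon response elements, rose by less (1.30, SE 0.074). That element was searched as GAAA, any 2 bases and GAAA, on both strands. It was present in 11 of the 22 list members with a promoter in the RefSeq table, of 31 listed, against 4.03% of the genes tested and 3.99% of all 27025 genes. The windows of 5 of them with matches before the start follow, matches in capitals, where overlapping matches run together: Isg15 (chr4:156200860-156200911, minus strand, 3 overlapping matches), Oas3 (chr5:120777710-120777749, minus strand), Rsad2 (chr12:26456548-26456587, minus strand), Ifit1 (chr19:34640770-34640828, plus strand) and Bst2 (chr8:71537572-71537617, minus strand, tetherin, 1.66 (SE 0.16)).
Isg15: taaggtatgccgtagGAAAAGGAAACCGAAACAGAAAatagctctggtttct
Oas3: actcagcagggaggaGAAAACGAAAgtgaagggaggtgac
Rsad2: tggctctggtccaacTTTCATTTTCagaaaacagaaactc
Ifit1: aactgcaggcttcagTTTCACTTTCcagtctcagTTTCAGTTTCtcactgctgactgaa
Bst2: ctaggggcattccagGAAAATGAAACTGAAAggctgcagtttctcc
In Rsad2 and Ifit1 the capitals are the reverse complement of the element. The fold changes of these genes did not follow the number of matches: Isg15 with 3 rose by 2.68 (SE 0.23) and Oas3 with 1 by 4.44 (SE 0.15).

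Genes induced by interferon gamma rose in 17 of 19 measured cases, of 22 listed, with 0 falls. Serpina3g, a protease inhibitor, stood at 14.8, 16.98, 12.3 and 17.8 CPM under bleomycin and 0.333, 0.174, 0 and 0.0567 under saline (6.71, SE 0.4), and Gbp3, a guanylate binding protein, at 27.9, 31.5, 25.6 and 35.5 CPM under bleomycin and 4.61, 4.09, 5.15 and 5.67 under saline (2.63, SE 0.14). Cxcl9 and Cxcl10, chemokines that draw T cells, stood at 3.51, 5.55, 4.49 and 7.92 and at 5.36, 6.14, 6.63 and 4.54 CPM under bleomycin (1.70 (SE 0.26) and 2.80 (SE 0.33)). Ifng itself did not pass the filter on low counts, with 19 counts over the bleomycin females and 0 over the saline ones, and Nos2 held 1 and 2. Of 23 antigen presentation genes 18 rose and 1 fell. The class II genes H2-Aa at 816, 878, 744 and 1182 CPM under bleomycin and 179, 150.0, 175 and 261 under saline (2.24, SE 0.19) and H2-Eb1 at 632, 708, 563 and 863 CPM under bleomycin and 85.3, 76.5, 95.4 and 127 under saline (2.85, SE 0.18) rose with Cd74, the invariant chain (2.11, SE 0.18). Their regulator Ciita stood at 75.96, 67.2, 38.5 and 42.2 CPM under bleomycin and 20.03, 18.5, 18.4 and 27.8 under saline (1.41, SE 0.21). C69 was highest in the class II genes but not in Ciita, where C49 and C50 were. The class I genes H2-K1 (1.38, SE 0.11), B2m (1.33, SE 0.12) and Tap1 (1.41, SE 0.1) and the costimulatory genes Cd86 (1.91, SE 0.12) and Cd40 (3.63, SE 0.32) rose. H2-DMa, which loads peptides on class II, was the member that fell, at 152, 165, 194 and 259 CPM under bleomycin and 268, 255, 226 and 301 under saline (-0.45, SE 0.13), and with C68 and C69 as the only bleomycin libraries no member fell.

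Of 22 measured chemokine and cytokine genes, of 29 listed, 14 rose and 3 fell. Cxcl16, which binds the lymphocyte receptor CXCR6, stood at 95.4, 125, 108 and 134 CPM under bleomycin and 4.61, 6.78, 6.83 and 4.71 under saline (4.32, SE 0.22). Csf1, the growth factor of macrophages, stood at 14.9, 20.2, 13.8 and 14.1 CPM under bleomycin and 0.832, 1.22, 0.683 and 0.794 under saline (4.13, SE 0.21). Ccl2, the ligand of CCR2, stood at 1.998, 9.12, 5.53 and 7.92 CPM under bleomycin and 0.222, 0.391, 0.158 and 0.0567 under saline (4.79, SE 0.55). These bleomycin levels were above saline in every library, with C49 low for Ccl2. Il1b (1.70, SE 0.28) and Il12b (3.76, SE 0.25) rose, while Tnf, at 6.04, 9.12, 6.78 and 7.98 CPM under bleomycin and 6.32, 8.04, 3.73 and 5.33 under saline (0.35, SE 0.26), and Cxcl2 (0.05, SE 0.78) did not pass. Il18 (-0.91, SE 0.16), Tnfsf13b, the B cell survival factor BAFF, at 3.51, 3.99, 5.32 and 5.71 CPM under bleomycin and 16.8, 16.7, 14.5 and 18.8 under saline (-1.86, SE 0.22), and the interleukin 1 receptor antagonist Il1rn (-0.45, SE 0.1) fell. Innate sensors were divided, with 10 rises (41.67%) and 7 falls (29.17%) among 24 genes, against 26.7% and 17.2% over all genes tested. Tlr5, the flagellin receptor, fell from 52.1, 45.3, 44.4 and 47.7 to 8.19, 5.59, 8.504 and 4.97 CPM (-2.79, SE 0.22), and Nlrp3, an inflammasome sensor, from 50.1, 72.9, 58.98 and 62.4 to 34.2, 32.5, 36.05 and 36.5 CPM (-0.81, SE 0.14). Tlr1 (6.61, SE 0.44) and Tlr9 (4.51, SE 0.27) rose, and both were higher in C49 and C50, at 18.3, 17.1, 10.2 and 11.9 CPM for Tlr9. Tlr4 (-0.42, SE 0.12) and Tlr7 (-0.31, SE 0.1) fell by small amounts, and Tlr2 did not pass (-0.24, SE 0.13).

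Lymphocyte genes were close to absent under saline and clearly present under bleomycin. All 30 T cell genes rose, with a median of 6.79. Many genes of the T cell, NK cell and B cell lists, such as Cd3e with 8 counts and Nkg7 with 5 over the saline females, passed the low-count filter only through bleomycin libraries and so had to differ, and the counts of rises in these lists are a description. Some, such as Foxp3 with 67 saline counts, were not limited in that way. Cd3e, a chain of the T cell receptor complex, stood at 36.7, 30.5, 13.4 and 13.9 CPM under bleomycin and 0, 0.1304, 0.0525 and 0.227 under saline (7.76, SE 0.6). Cd4 stood at 43.9, 35.05, 13.4 and 13.9 CPM under bleomycin and 0.0555, 0.348, 0.0525 and 0.0567 under saline (7.50, SE 0.6) and Cd8a at 42.9, 35.7, 15.96 and 15.9 CPM under bleomycin and 0, 0.0869, 0 and 0.114 under saline (8.91, SE 0.62). C49 and C50 held more than 2 times the level of C68 and C69 in each. Tcf7, a transcription factor of naive and memory T cells, stood at 164, 142, 50.3 and 54.98 CPM under bleomycin and 0.0555, 0.304, 0.158 and 0.397 under saline (8.76, SE 0.63), and Foxp3, that of regulatory T cells, at 9.65, 7.69, 3.13 and 4.97 CPM under bleomycin and 0.444, 1.04, 0.945 and 0.965 under saline (2.89, SE 0.34). Pdcd1, the inhibitory receptor PD-1 (7.05, SE 0.6), and Cxcr3, the receptor of CXCL9 and CXCL10 (8.26, SE 0.58), also rose. The summed CPM of the list was 1191, 1075, 468.2 and 538.3 under bleomycin and 13.34 to 17.04 under saline, and the part of these cells in the changes of genes that lymphocytes share with macrophages was not tested. NK and cytotoxic genes rose in 13 of 13 measured cases, of 16 listed, led in level by Ccl5 at 49.4, 51.5, 26.9 and 41.9 CPM under bleomycin and 0.832, 0.869, 0.525 and 0.681 under saline (5.84, SE 0.37). Nkg7 (7.31, SE 0.55) and Gzmb (5.42 (SE 0.68), at most 1.85 CPM) were lower in level. B cell and plasma cell genes rose in 19 of 20 measured cases, of 22 listed. Ighm, the immunoglobulin M heavy chain, stood at 130.2, 109, 29.6 and 59.8 CPM under bleomycin and 0.666, 0.782, 0.368 and 0.681 under saline (7.02, SE 0.56), Cd79a at 40, 36.4, 8.87 and 20.5 CPM under bleomycin and 0.111, 0.217, 0.105 and 0.341 under saline (7.06, SE 0.69) and Ms4a1, CD20, at 17.3, 15.6, 2.4 and 7.67 CPM under bleomycin and 0.166, 0, 0.263 and 0.114 under saline (6.31, SE 0.75). C68 was the lowest bleomycin library in all of them. The exception in the list was Xbp1, a transcription factor of secretory cells that macrophages also express, which fell, at 204, 243, 378 and 311 CPM under bleomycin and 517, 476, 492 and 512 under saline (-0.81, SE 0.14).

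Dendritic cell genes rose in 18 of 20 measured cases, of 21 listed, and 2 fell. Flt3, the receptor of their growth factor, stood at 37.8, 37.5, 22.1 and 38.4 CPM under bleomycin and 2.44, 1.87, 1.57 and 2.67 under saline (4.00, SE 0.23). Xcr1, a receptor of the cross-presenting subset, stood at 11.6, 12.4, 10.2 and 14.4 CPM under bleomycin and 0.111, 0.348, 0.473 and 0.567 under saline (5.0, SE 0.34), and Ccr7, which guides mature cells to lymph nodes and is also on T cells, at 158, 144, 80.1 and 108 CPM under bleomycin and 8.04, 5.87, 6.83 and 6.24 under saline (4.19, SE 0.3). Fscn1, an actin bundler of mature cells, stood at 236, 229, 146 and 261 CPM under bleomycin and 7.32, 7.13, 6.41 and 4.26 under saline (5.11, SE 0.34). All were above the saline range in every bleomycin library. Batf3, a factor of the cross-presenting subset, was called as lower (-0.72, SE 0.27, edgeR adjusted p = 0.0362), but its saline level in C74, 5.33 CPM, lay within the bleomycin range, and the groups overlapped. Sirpa, which macrophages express too, fell (-0.31, SE 0.096).

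Markers of other cells that a lavage can hold did not move as one, and several did not pass the filter. Of 12 measured neutrophil genes, of 18 listed, 8 rose and 3 fell. S100a8 stood at 33.6, 35.98, 39.3 and 69.7 CPM under bleomycin and 2.88, 2.78, 2.63 and 2.1 under saline (4.09, SE 0.27) and Cxcr2 at 43.7, 31.6, 39.5 and 34.4 CPM under bleomycin and 4.66, 4.39, 4.78 and 3.97 under saline (3.06, SE 0.17), while Ly6g had 0 counts in all 8 libraries. The genes that fell, Fpr1 (-1.28, SE 0.19), Trem1 (-0.73, SE 0.17) and Csf3r (-0.46, SE 0.12), were abundant under saline, and the summed list level was 340.0 to 474.1 CPM under bleomycin and 478.8 to 586.9 under saline. Eosinophil, mast cell and basophil genes were measured in 6 of 16 cases, 1 of them with 0 counts in saline females, which could not fall. The one that fell was Siglecf, shared with alveolar macrophages, and Ccr3, an eosinophil receptor, stood at 4.09, 2.48, 0.313 and 1.29 CPM under bleomycin (6.01, SE 0.89). Epithelial genes rose in 17 of 22 measured cases, of 24 listed, and 2 fell. Sftpc, surfactant protein C of alveolar type II cells, stood at 19, 19.6, 31.04 and 35.6 CPM under bleomycin and 4.61, 1.13, 2.101 and 2.61 under saline (3.35, SE 0.36), Scgb1a1, the club cell secretoglobin, at 14.3, 32.9, 62.1 and 40.1 CPM under bleomycin and 6.05, 6.35, 12.7 and 5.28 under saline (2.30, SE 0.44) and Krt8, a keratin, at 16.8, 16.2, 17.01 and 16.3 CPM under bleomycin and 0.666, 0.391, 0.578 and 0.397 under saline (5.03, SE 0.2). The groups did not overlap in these 3 genes. Epcam, an adhesion protein, and Krt19 fell instead, at 14.4, 17.8, 18.4 and 22.6 CPM under bleomycin and 117, 105, 109.7 and 147 under saline (-2.71, SE 0.15) and 87.9, 106, 235 and 118 CPM under bleomycin and 649.9, 528, 521 and 606 under saline (-2.07, SE 0.27). The summed epithelial level was 323.1 to 581.8 CPM under bleomycin and 754.6 to 892.7 under saline. Most of the saline sum was Krt19, which is also in the list of resident macrophage genes. The sum thus does not follow the 17 members that rose, and the part of epithelial cells in these changes was not tested. Fibroblast and endothelial genes were measured in 10 of 20 cases, of which 7 rose and 1 fell. Of the 10, 2 had 0 counts in saline females and could not fall. Pecam1, with 18 counts there, passed the low-count filter only through bleomycin libraries and had to differ, so these counts of rises are a description. Col1a1 had 0 counts in saline females and 43 over the bleomycin females, at least 14.3-fold above the floor, and Pecam1, which leukocytes share with endothelium, stood at 24.1, 18.4, 4.49 and 9.204 CPM under bleomycin (5.89, SE 0.63). Haemoglobin and heme synthesis genes of red cells were called in 0 of 5 measured cases by edgeR, with unadjusted p values of at least 0.110, and in 3 of 5 without the low-count filter. Hbb-bs stood at 524, 440.2, 89.4 and 414 CPM under bleomycin and 226, 3.999, 156 and 68.8 under saline (1.69, SE 1.1), with overlapping groups, and reads of the haemoglobin gene pairs, whose sequences are almost the same, may be split between them.

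Genes of the p53 response, which DNA damage activates, rose in 18 of 26 cases and fell in 2. Gdf15, a secreted stress protein, stood at 34.5, 48.1, 55.6 and 55.2 CPM under bleomycin and 9.99, 10.04, 9.77 and 5.39 under saline (2.45, SE 0.26). Cdkn1a, which halts the cell cycle, stood at 119, 215, 238 and 189 CPM under bleomycin and 121, 120.5, 128 and 97.9 under saline (0.70, SE 0.15), C49 being within the saline range. Sesn1 (2.01, SE 0.14), Trp53inp1 (1.49, SE 0.11), Gadd45a (3.22, SE 0.29) and Mdm2 (0.77, SE 0.086) rose with the groups apart, and Trp53 itself did not pass (0.04, SE 0.089). Btg2 fell (-0.71, SE 0.13). Of 36 cell cycle genes 4 rose and 8 fell, together below the background of 43.9%. The rises alone were 11.11%, against 26.7% over all genes tested, and the falls 22.22%, against 17.2%. Without composition scaling 18 fell, and without C49 8 rose. Mki67, a marker of dividing cells, stood at 123, 142, 148 and 125 CPM under bleomycin and 184, 169, 166 and 145 under saline (-0.30, SE 0.13, edgeR adjusted p = 0.0764), Top2a at -0.11 (SE 0.11) and Cdk1 at 0.14 (SE 0.11), none of which passed. Cdk6 fell, at 74.7, 58.5, 78.1 and 63.6 CPM under bleomycin and 249, 246, 225 and 225 under saline (-1.78, SE 0.12), and Ccnd1, cyclin D1, rose, at 14.1, 19.2, 13.04 and 15.4 CPM under bleomycin and 1.72, 1.04, 1.05 and 1.702 under saline (3.50, SE 0.24). Immediate early genes, which respond to stimulation and to handling of cells, were divided. Among 24 there were 11 rises (45.83%) and 8 falls (33.33%), against 26.7% and 17.2% over all genes tested. Egr1 (2.85, SE 0.29), Junb (1.17, SE 0.1) and Nr4a3 (3.06, SE 0.24) rose, and Fos (-0.62, SE 0.12), Dusp1 (-0.87, SE 0.28) and Klf4 (-0.71, SE 0.14) fell. Of 23 heat shock and unfolded protein genes 5 rose (21.74%) and 2 fell (8.696%), against 26.7% and 17.2% over all genes tested. The chaperone gene Hspa5 stood at 490.2, 699, 1093 and 839 CPM under bleomycin and 743, 699.8, 765 and 794 under saline (0.06, SE 0.18) and did not pass, with C49 low and C68 high.

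Transcription factors of macrophages rose in 11 of 27 cases (40.74%) and fell in 8 (29.63%), against 26.7% and 17.2% over all genes tested. Maf rose (4.85, SE 0.29). Runx2 (-0.84, SE 0.099), Runx1 (-0.52, SE 0.1), Klf4 and Egr2 (-0.57, SE 0.16) fell. Spi1, PU.1, which all macrophages need, did not pass, at 375, 409, 532 and 597 CPM under bleomycin and 547, 534, 508 and 542 under saline (-0.16, SE 0.11). Of 14 measured genes of sex steroid receptors and synthesis, of 19 listed, 3 rose (21.43%) and 4 fell (28.57%), against 26.7% and 17.2% over all genes tested. Esr1, the oestrogen receptor alpha, stood at 3.95, 3.87, 3.76 and 2.7 CPM under bleomycin and 0, 0.0869, 0.105 and 0.341 under saline (4.72, SE 0.51), near 0 under saline. Nr3c1, the glucocorticoid receptor, fell, at 138, 142, 148 and 145 CPM under bleomycin and 193, 195, 186 and 182 under saline (-0.40, SE 0.073), as did Hsd17b4 (-0.74, SE 0.09). Esr2 and Cyp19a1 had 0 counts in all 8 libraries.

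Xist, the long RNA that silences 1 X chromosome in female cells, spread widely among the bleomycin libraries. It stood at 828, 460.3, 333 and 222 CPM under bleomycin and 704, 743, 804 and 664 under saline (-0.66, SE 0.27, edgeR adjusted p = 0.0539). C49 was above all saline libraries and the other 3 bleomycin libraries below them. Malat1 and Neat1, long RNAs kept in the nucleus and named after their values were seen, were also highest in C49 among the bleomycin libraries: Malat1 stood at 2412, 823, 544 and 299.8 CPM under bleomycin and 1066, 1276, 1585 and 1098 under saline (-0.30, SE 0.42) and Neat1 at 1021, 611, 311 and 313 CPM under bleomycin and 545, 859, 1023 and 809 under saline (-0.52, SE 0.31), and neither passed. The other genes classed as lincRNA, antisense or TEC (an annotation class of transcripts still to be tested by experiment) together took 0.503%, 0.362%, 0.298% and 0.276% of the counts under bleomycin and 0.511%, 0.549%, 0.605% and 0.526% under saline, again highest in C49 among the bleomycin libraries. In the list named for X inactivation escape 4 of 15 measured members fell (26.67%) and 1 rose (6.667%), against 17.2% and 26.7% over all genes tested. Ddx3x at -0.42 (SE 0.069) and Kdm5c at -0.40 (SE 0.089) were among the falls. However, 3 of the 15 had 0 counts in all saline females and so could not fall, which lowers the share of falls. No member of the list, these 3 included, rose by more than 0.45, and the counts are a description of the list. The summed counts of the Y-linked genes Ddx3y, Eif2s3y, Kdm5d and Uty were 0 in all libraries but C76, with 2.

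The bleomycin libraries also differed over whole lists. As a mean of log2(CPM + 1), T cell genes stood at 4.749, 4.631, 3.458 and 3.650, B cell genes at 4.401, 4.304, 2.833 and 3.557, and resident macrophage genes at 8.046, 8.196, 8.672 and 8.597. The libraries with more lymphocyte RNA thus had less of the resident macrophage RNA. Interferon response genes, at 4.782, 4.815, 4.606 and 4.816, did not divide in that way. Among the 10 protein-coding genes with the largest spread over the bleomycin females, at a mean of at least 10 CPM, 4 were haemoglobin genes (Hbb-bt, Hba-a2, Hbb-bs and Hba-a1) and Ms4a1, Pax5 and Siglecg are known from B cells. Others were Carmil2, at 27.6, 20.6, 6.21 and 4.66 CPM, and Cmah, at 59.6, 31.8, 7.09 and 8.04 CPM. C49 was the highest of the bleomycin libraries in all 10.

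**Figure D4:**
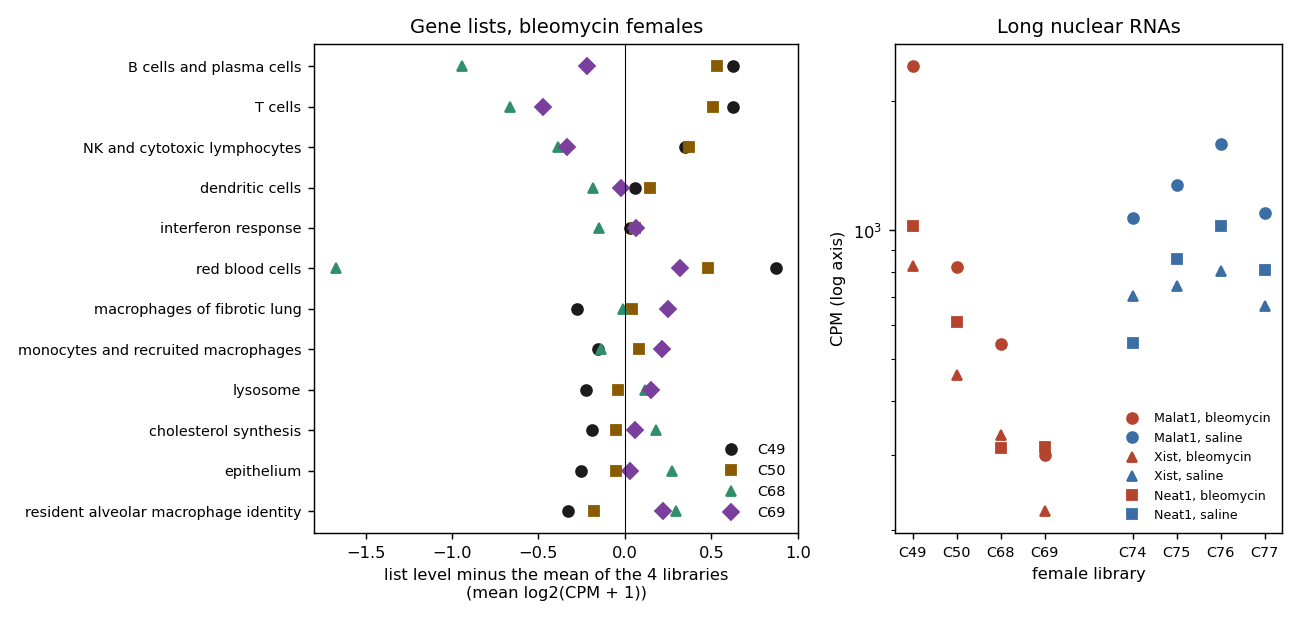
Left, the level of 12 gene lists in each bleomycin female library, as its difference from the mean of the 4 (mean log2(CPM + 1)). C49 and C50 lie to the right for lymphocyte lists and to the left for resident macrophage genes. Right, CPM of Malat1, Xist and Neat1 in each female library on a log axis, with C49 highest of the bleomycin libraries in all 3.

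The largest rises among genes with at least 10 CPM in the higher group included Ly6c2, Cd38, Gimap6, Lef1, Cmah, Fam169b, Cd8b1, Igfbp4, Cd8a, Trib2 and Tcf7. Over the saline females Ly6c2 and Cd38 had 0 counts, Lef1 2, Cd8a 4, Igfbp4 15 and Tcf7 18. Such genes passed the low-count filter only through bleomycin libraries and had to differ. Their rank and the size of their changes rest on these few saline counts and are a description. Igfbp4, an insulin-like growth factor binding protein, stood at 172, 123, 50.5 and 76.4 CPM under bleomycin and 0.0555, 0.0869, 0.473 and 0.1702 under saline (9.05, SE 0.68). Genes with 0 counts in all saline females included Cd38, an NAD-degrading surface enzyme, at 10.5, 12.9, 6.16 and 18.4 CPM under bleomycin (at least 311-fold higher). Others were Nnmt, a nicotinamide methyltransferase (at least 161-fold), Il9r (at least 157-fold), Ctla4 (at least 155-fold), Cd7 (at least 139-fold), Sel1l3 (at least 138-fold) and Dtx1 (at least 112-fold). Nnmt and Sel1l3 did not have the higher C49 and C50 of lymphocyte genes: Nnmt stood at 3.31, 6.89, 5.63 and 9.02 CPM and Sel1l3 at 4.87, 6.01, 5.06 and 5.4 CPM.

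Among genes with at least 10 CPM in the higher group the largest falls were Dnah11, Fabp1, Krt79, Itgad, Acaa1b, Kcnh4, Coro6, Cpne5, Tppp, Spag11b, Amer2 and Dtna. Dnah11, a dynein chain of motile cilia, stood at 1.27, 1.51, 3.34 and 0.307 CPM under bleomycin and 55.2, 42.9, 63.1 and 55.2 under saline (-5.04, SE 0.4). Krt79, a keratin, stood at 19.6, 28.5, 64.01 and 33.8 CPM under bleomycin and 646, 666, 717 and 650.4 under saline (-4.20, SE 0.34), and Itgad, an integrin subunit of macrophages, at 2.97, 1.85, 2.19 and 2.82 CPM under bleomycin and 40.3, 45.1, 46.9 and 39.04 under saline (-4.13, SE 0.19). Acaa1b, a peroxisomal thiolase, stood at 9.11, 15.6, 22.8 and 13.8 CPM under bleomycin and 220.0, 242, 258 and 247 under saline (-3.98, SE 0.2). No bleomycin library came near the saline range in these genes. Cpne5, a copine, stood at 17.1, 15.1, 26.97 and 22.9 CPM under bleomycin and 249, 238, 229.7 and 239 under saline (-3.55, SE 0.2). Tppp, a tubulin-binding protein, stood at 0.7796, 1.76, 4.59 and 0.982 CPM under bleomycin and 27.2, 18.4, 20.3 and 25.02 under saline (-3.48, SE 0.4), with C68 the highest bleomycin library, as in Dnah11 and Krt79. At a lower level, Trim42 had 71 counts over the saline females and 0 over the bleomycin females, at least 24.5-fold lower.

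Per gene length, in the deposited FPKM, Lyz2 was the most abundant gene of both groups, at 14200 ± 339 FPKM (SD, n = 4) in saline and 35510 ± 5335 in bleomycin females. Under saline Chil3, Fth1, mt-Co1, Tmsb4x, Ctss, Ear2 and Eef1a1 followed. Under bleomycin Fth1 came next at 15170 ± 3094 FPKM, and Chil3 followed at 8217 ± 3272, Spp1 at 7226 ± 1575 and mt-Co1 at 6781 ± 632, which differ by less than the SD of Chil3. Ctss, Psap and Ctsd, all of the lysosome, completed the first 8. The share of the 10 genes with most counts was 11.82% to 15.38% under bleomycin and 8.021% to 8.351% under saline.

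**Figure D5:**
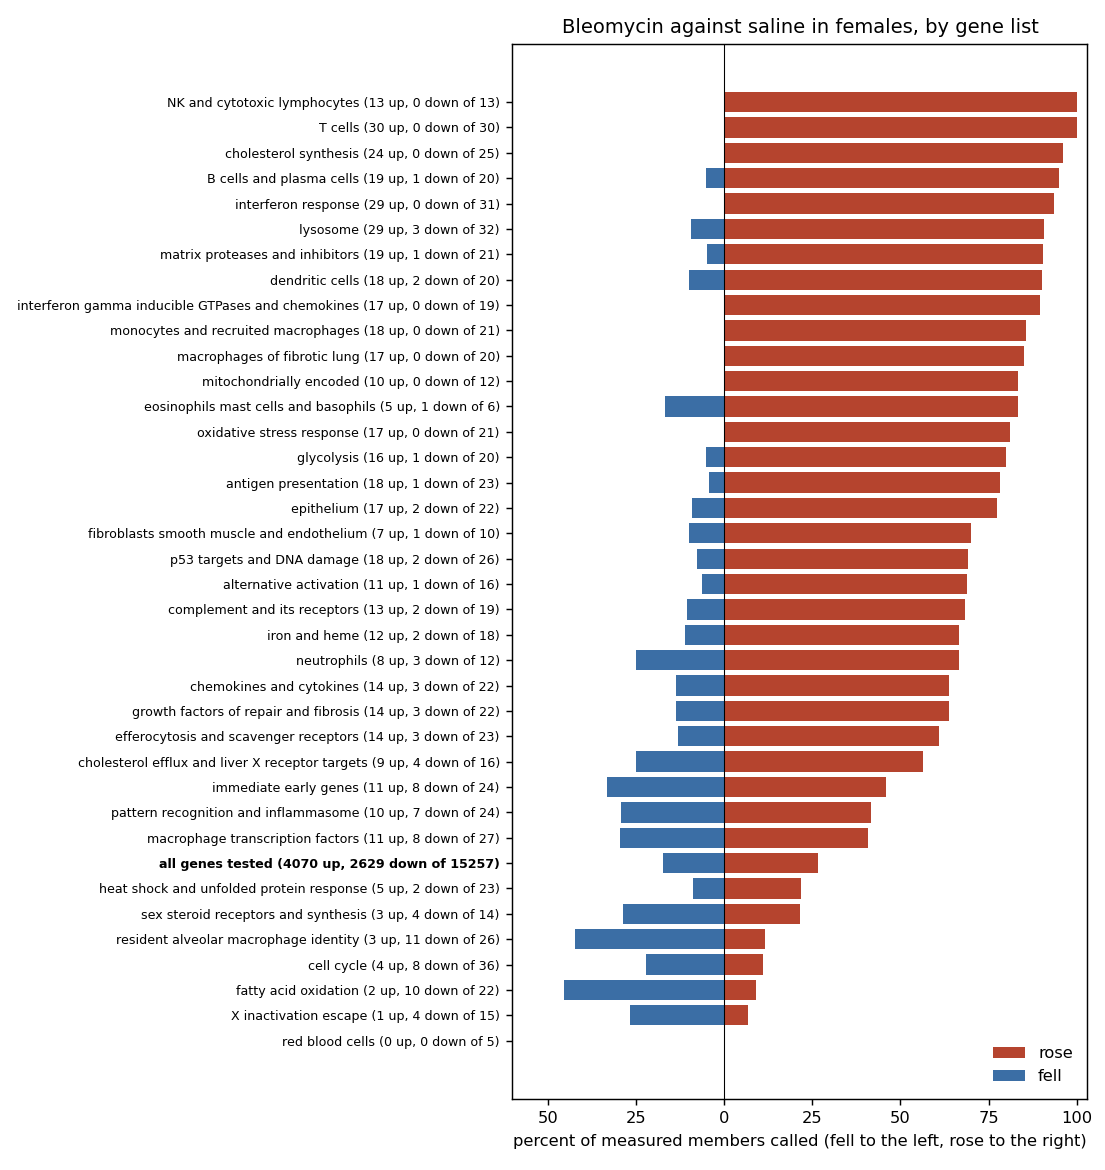
Percent of the measured members of each gene list that rose (right) or fell (left), bleomycin against saline in females, with the counts at the left. All genes tested, at 26.7% up and 17.2% down, are in bold. All measured T cell and NK cell genes rose, many of which passed the low-count filter only through bleomycin libraries and had to differ, and fatty acid oxidation and resident macrophage genes have the largest shares of falls.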

How the data were processed

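RNA from lavage cells of 16 libraries was analysed, 4 in each of 4 groups by sex and treatment. Per the submitters' processing notes, which give tools without their order, the tools of the authors included HISAT2 2.0.5, featureCounts 1.5.0-p3, DESeq2 and fastp 0.12.2. These notes name 2 mouse genome builds without their roles. The deposited coordinates were identical to those of GENCODE M21 (GRCm38) for 98.26% of the 54495 gene identifiers shared with it. The authors deposited raw read counts per gene and, per the file headers, FPKM values, and whether counting used strand is not given in the sources used here, so that a gene and its antisense partner cannot be told apart. The authors' deposited comparison tables hold log2 fold changes and p-values, used only for the comparison of calls.

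From the counts, genes were filtered with filterByExpr of edgeR 4.0.16 (minimum count 10) in R 4.3.3, scaled by TMM, and fitted over all 16 libraries with the quasi-likelihood test, without a block, since the library codes are not shared between groups and the labels give no batch. Benjamini-Hochberg adjustment ran over all 15257 genes tested, and genes were called below 0.05. The difference between the sexes was an interaction contrast. The calculation was tested on simulated data. Alternatives were DESeq2 1.42.0, limma 3.58.1 (voom), RLE factors, library totals alone, no low-count filter, a stricter filter (at least 1 CPM in at least 8 libraries), the 8 female libraries alone and each library left out. Fits with C68 and C69, or C49 and C50, as the only bleomycin females were added after seeing the data. Totals of 16385784 to 24567609 counts per female library limit genes at a few counts, and floors cover counting error only.

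The 37 gene lists (777 symbols, 53 of them in more than 1 list) and the genes named were chosen with earlier results of these data known. Named genes were the 12 largest rises and falls, list members marked as key, with the smallest p-values or called against their list, the 10 most variable genes under bleomycin, genes at 0 in one group, the 8 highest FPKM values, and genes called in the interaction. Malat1, Neat1, Slc3a2, Gclm, Rsad2, Bst2, Gla, Atp6v1a, Chil4, Ccl24, Ifng and Nos2 were named outside that rule, after their values were seen or for their promoter. Results for some genes that the rule names are not reported here.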

Additional observations from a re-analysis of the deposited data

Results flagged for a closer look

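In the groups of 4, 36 of 608 gene levels, list levels or library totals had 1 library set apart from the others. Its distance from the nearest other library passed Dixon's 95% critical value as a share of the range, and chance gives about 1 in 20 such cases. The 608 include genes with fewer than 20 counts over the group, to which the rule was not applied, so the share among those examined was higher. C49 lay below the other libraries of its group in the CPM of Eef1a1 at 5307 (others 5885 to 5911) and Mfge8 at 321.7 (others 460.8 to 489.1). C50 lay above the other libraries of its group in the CPM of Csf1 at 20.22 (others 13.77 to 14.86). C50 lay above the other libraries of its group in the mean log2(CPM + 1) of the list p53 targets and DNA damage at 5.261 (others 5.04 to 5.055). C68 lay above the other libraries of its group in the CPM of Cpt1a at 384.4 (others 341.7 to 344), Mertk at 441.8 (others 385 to 391.9) and Tfeb at 75.59 (others 72.94 to 73.02). C68 lay below the other libraries of its group in the CPM of Flt3 at 22.07 (others 37.49 to 38.41) and Hba-a1 at 71.63 (others 362.8 to 401.7). C68 lay below the other libraries of its group in the mean log2(CPM + 1) of the list interferon response at 4.606 (others 4.782 to 4.816). C69 lay above the other libraries of its group in the CPM of Cd74 at 3547 (others 2455 to 2563), Cfb at 12.89 (others 6.577 to 7.229), Gpx3 at 51.3 (others 27.97 to 31.56), S100a8 at 69.65 (others 33.57 to 39.28) and Srebf1 at 153 (others 134.2 to 136.1). C69 lay below the other libraries of its group in the CPM of Esr1 at 2.7 (others 3.756 to 3.946) and Kdm5c at 120.5 (others 136 to 138.8). C74 lay above the other libraries of its group in the CPM of C5ar1 at 342.6 (others 254.2 to 261), Ifit1 at 2.33 (others 0.5216 to 0.7377), Nfe2l2 at 209.6 (others 177.4 to 180.8) and Trp53 at 73.95 (others 60.6 to 61.65). C74 lay below the other libraries of its group in the CPM of C1qa at 1.331 (others 2.206 to 2.27) and Foxp3 at 0.4438 (others 0.9453 to 1.043). C75 lay above the other libraries of its group in the CPM of Atp6v1a at 258.5 (others 232.2 to 235.8) and Mmp12 at 19.52 (others 7.667 to 8.876). C75 lay below the other libraries of its group in the CPM of Siglecf at 571.5 (others 583.1 to 584.8). C76 lay above the other libraries of its group in the CPM of Scgb1a1 at 12.66 (others 5.277 to 6.346). C76 lay below the other libraries of its group in the CPM of Pdgfc at 48.52 (others 57.37 to 58.5). C77 lay above the other libraries of its group in the CPM of Chil3 at 20880 (others 17710 to 18090) and Insig1 at 87.67 (others 71.76 to 73.84). C77 lay below the other libraries of its group in the CPM of Gdf15 at 5.391 (others 9.768 to 10.04) and Mylip at 69.97 (others 81.66 to 82.63). C77 lay above the other libraries of its group in the mean log2(CPM + 1) of the list cholesterol synthesis at 5.615 (others 5.437 to 5.445) and antigen presentation at 6.131 (others 5.919 to 5.951). C77 lay below the other libraries of its group in the mean log2(CPM + 1) of the list efferocytosis and scavenger receptors at 5.434 (others 5.587 to 5.59) and eosinophils mast cells and basophils at 1.722 (others 1.781 to 1.785). 

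Slc7a11 was set apart by the test of the difference between the sexes. Its bleomycin effect was 3.196 in females and 1.262 in males on the log2 scale, a difference of 1.934 with an edgeR adjusted p of 0.0436. Every saline female lay below every saline male in Slc7a11, and the bleomycin levels of the sexes overlapped.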

How the results depend on the processing

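Over the settings tried, 5646 to 7969 genes were called in females, and with each library left out 6067 to 7754. Library totals alone, without composition scaling, gave 4836 falls against 2629. The stricter filter, which tests fewer genes, left 1515 rises of at least 2-fold against 2325. Falls of at least 2-fold numbered 629 to 1120 with each library left out, 1120 without C49, and 1439 with C68 and C69 as the only bleomycin females, and the cause was not tested. Genes called in the difference between the sexes numbered 1 in edgeR, 23 in DESeq2, 15 without the low-count filter, 0 in limma voom, 0 with library totals alone, 0 with the stricter filter, and 0 to 1 with each library left out. Atp6v0d2 turned from 0.08, not called, to -0.24, called, with C49 and C50 as the only bleomycin females. Among list counts 70 of 1258 alternatives moved by more than 1.5 times. No paired analysis was possible because the groups share no library codes. Depth limits genes with few counts, such as Il5ra, Col1a1 and Trim42.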
